A study of Mus musculus with 12 samples.

Results

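Lymph node cells carrying CD11c were compared between tumor-bearing mice given a CD40 agonist and healthy mice. The agonist group was 4 libraries from inguinal nodes that drained a subcutaneous KPC tumor in mice given the agonist, and the healthy group was 4 libraries from inguinal nodes of healthy mice. They were taken by title as 8 of the 12 libraries of the series. The other 4, from tumor-draining nodes without the agonist, entered the same fit and serve here as values beside the comparison. KPC denotes a mouse model of pancreatic carcinoma. The groups differ in tumor and agonist together, and the share of each cannot be told apart from this contrast alone. Strain, sex, age, the agonist's name, dose and timing, the origin of the tumor cells and the purity of the sort: none is given in the sources used here.

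Dendritic cells take up antigen and show its fragments to T cells on major histocompatibility complex (MHC) molecules. Helper T cells engage CD40 on them with CD40 ligand, and the signal runs through TRAF adaptors and both arms of NF-kB to raise costimulatory molecules and interleukin 12. Antibodies that engage CD40 in place of the ligand are called agonists. Itgax encodes the integrin CD11c, which dendritic cells share with certain macrophages and lymphocytes.

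In the agonist nodes, genes of the interferon response, class I presentation, complement and the mature migrating state of dendritic cells were higher. Lectins of the CD209 family, class II presentation genes, enzymes of cholesterol synthesis and markers of the type 1 dendritic cell were lower for the most part. Genes for PD-L1, PD-L2, interleukin 12 p40 and CD80 rose, as did neutrophil and plasma cell genes.

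The deposited estimated counts, summed to genes, totalled 32578457 to 54312288 in the 8 libraries, and 23729 genes passed a filter on low counts. Levels are in CPM, a gene's counts after scaling all libraries to equal size. They are given as mean ± SD (n = 4), or as 4 values in the order of replicates 1 to 4. Changes are log2 ratios of agonist to healthy ± SE. A gene was called at an adjusted p under 0.05 in edgeR's quasi-likelihood fit, adjusted after Benjamini and Hochberg over all genes, and "rose" and "fell" are used of called genes. Each title carries a prefix that 1 library of every group shares, which numbers the replicates and entered the fit as a block. Whether libraries stand for separate animals is not stated, so the p-values speak of the spread between these samples, possibly a technical one.

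The first principal component of the 8 libraries held 35.4% of the variance, of which 68.5% lay between prefixes and 29.7% between groups. The second held 24.2%, of which 61.4% lay between groups. Replicates 1 and 2 had more Malat1, a nuclear noncoding RNA, than replicates 3 and 4, by 3.03-fold in healthy and 2.45-fold in agonist libraries. Malat1 itself was not called between the groups (log2 change 0.11 ± 0.12, adjusted p = 0.593). Markers of neutrophils summed to 28.4 to 40.1 CPM in healthy and 66.3 to 145 CPM in agonist libraries. Those of plasma cells summed to 278 to 418 CPM and 396 to 750.1 CPM. Both lists thus moved with the groups, the neutrophil one with no overlap between them. The part of these cells in the results below was not tested.

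**Figure D1:**
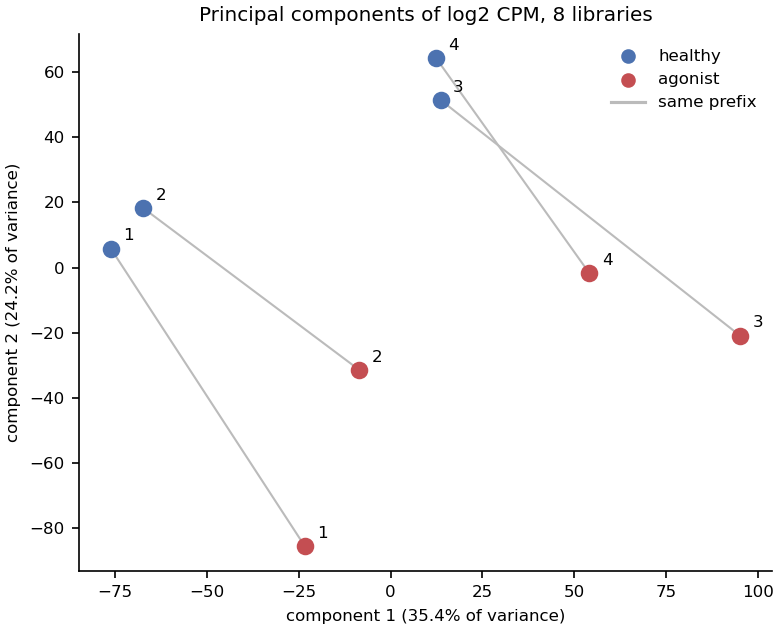
The 8 libraries on the first (x axis) and second (y axis) principal component of log2 CPM, with numbers for replicates and grey lines joining libraries of 1 prefix. Every line runs the same way, from healthy at the upper left to agonist at the lower right, while replicates 1 and 2 of each group lie to the left of replicates 3 and 4.

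In all, 4781 of 23729 genes (20.1%) were called, 2774 higher (11.7%) and 2007 lower (8.46%), around a median log2 change of -0.03 over all genes tested. Of the called genes, 697 were more than 1 log2 unit higher and 526 more than 1 log2 unit lower. Without the block 1490 were called, 1009 higher and 481 lower, of which 1477 were among the 4781. Within prefixes 1 and 2 alone 3131 of 24592 genes were called, 2104 higher and 1027 lower. Within prefixes 3 and 4 alone 1187 of 23137 were called, 818 higher and 369 lower. Without healthy replicate 3 the count was 3012, 1679 higher and 1333 lower, and without healthy replicate 1 it was 3362, 1844 of them higher. The 4 agonist libraries lay wholly above the 4 healthy ones for 7.6% of all genes and wholly below for 4.75%. Counts of list members below are to be read beside these shares, and counts within pairs of prefixes beside the totals of those fits.

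**Figure D2:**
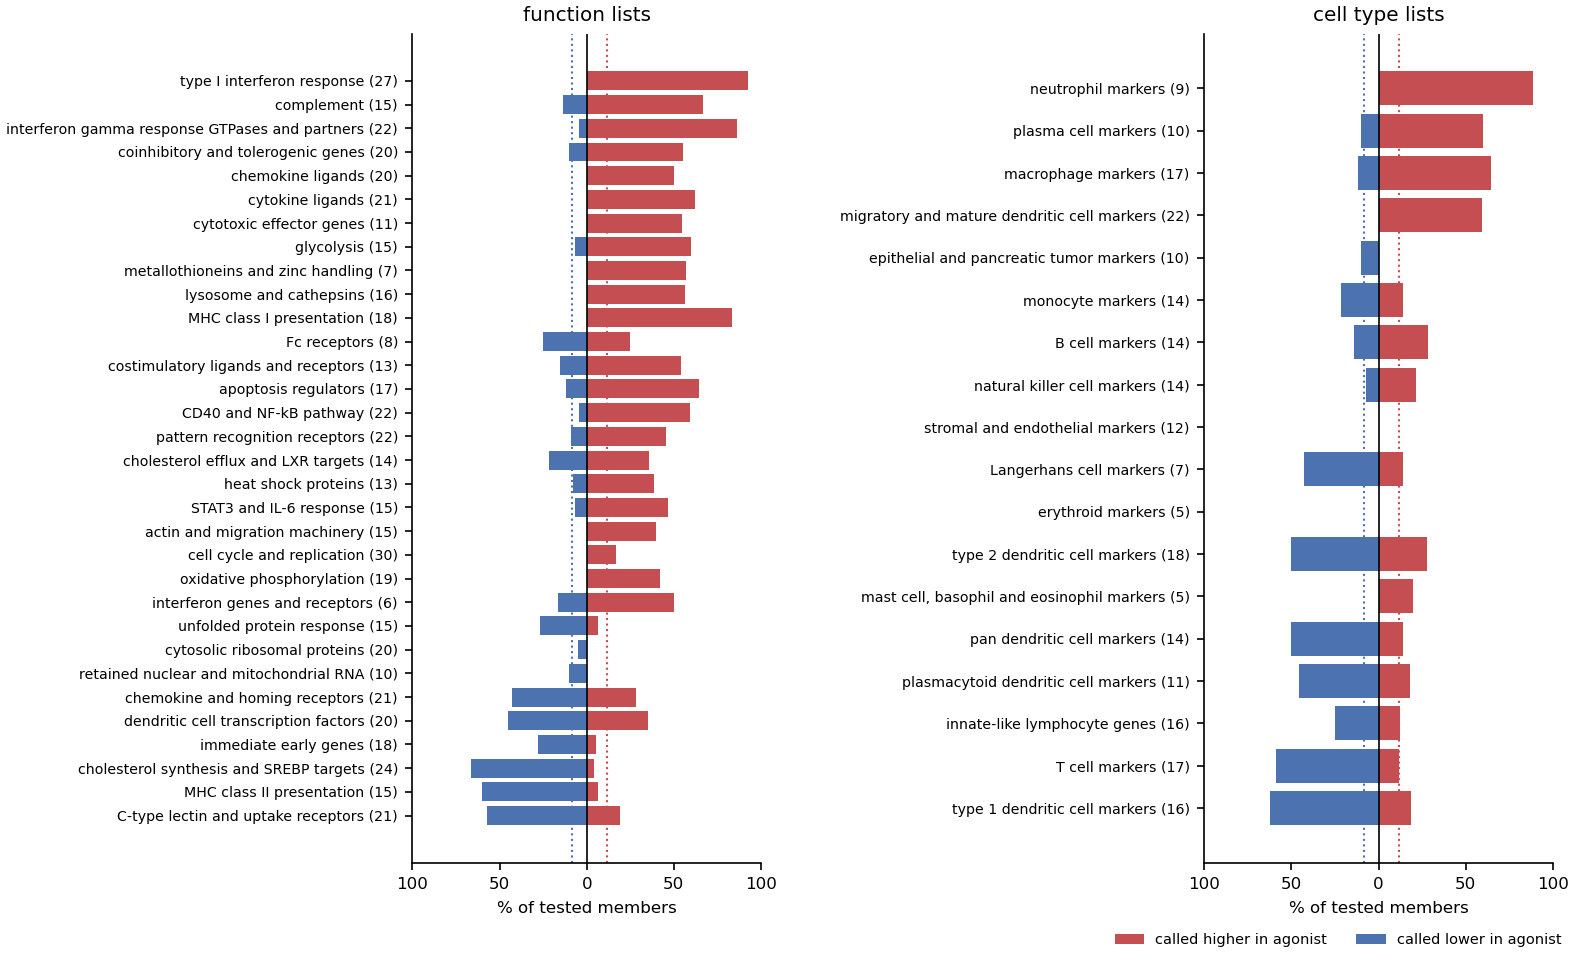
Share of the tested members of each gene list (number in brackets) called higher in agonist libraries (red, to the right) or lower (blue, to the left), in percent, with lists ordered by median log2 fold change. Dotted lines mark the same shares over all 23729 genes, 11.7% higher and 8.46% lower; interferon and neutrophil lists extend furthest to the right, and the cholesterol synthesis, type 1 dendritic cell, class II, T cell and lectin lists to the left.

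The labelled cells were checked against their defining genes. Itgax stood at 679, 647, 913 and 1090.1 CPM in healthy and 641, 658, 921 and 703 CPM in agonist libraries. The groups overlapped, with 2 pairs higher and 2 lower (log2 change -0.17 ± 0.10, adjusted p = 0.295). Flt3, the growth factor receptor of dendritic cells, was present in every library and fell from 679 ± 111 to 462 ± 99.98 CPM (adjusted p = 0.000872, 0.122 without the block). Zbtb46, a transcription factor of conventional dendritic cells, fell from 195 ± 15.4 to 157 ± 17.9 CPM (adjusted p = 0.00913, 0.197 without the block). Of the 14 pan-dendritic markers tested, 2 rose, 7 fell and 5 did not pass, and their median log2 change was -0.28 (without the block 1 rose and 3 fell). Others that fell were Kmo, an enzyme of tryptophan breakdown (from 218 ± 60.1 to 117 ± 20.9 CPM, adjusted p = 0.000114), and the transcription factor Bcl11a (from 95.1 ± 20.5 to 52.3 ± 8.07 CPM, adjusted p = 5.79e-05). In RNA of a whole sort, fewer cells of a type and less RNA per cell cannot be told apart.

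Markers of the type 1 conventional dendritic cell, the subset specialised in showing antigen from dead cells on class I molecules, fell for the most part. Of the 16 type 1 dendritic cell markers tested, 3 rose, 10 fell and 3 did not pass, and their median log2 change was -1.09. Xcr1, the receptor for XCL1 that defines the subset, was at 206, 273, 334 and 278 CPM in healthy and 47.6, 154, 87.1 and 103 CPM in agonist libraries. The highest agonist library lay below the lowest healthy one, and agonist replicate 1 was the lowest of all (log2 change -1.57 ± 0.21, adjusted p = 0.00177). Clec9a, a receptor for actin exposed on dying cells, was at 107, 115, 137 and 115 CPM in healthy and 38.8, 74.8, 45.5 and 50.8 CPM in agonist libraries. Again no agonist library reached the healthy range (log2 change -1.21 ± 0.15, adjusted p = 0.000568). Cd8a, the CD8 alpha chain that resident type 1 cells carry, fell from 291 ± 73.8 to 110.2 ± 44.9 CPM (adjusted p = 0.00476). The double-stranded RNA receptor Tlr3 (-1.33), the lipid amidase Naaa (-1.42) and the adhesion molecule Cadm1 (-0.98) fell too, given with their log2 changes. Against these falls, 3 members rose. Ly75, the uptake receptor DEC-205 that mature dendritic cells also carry, went from 262 ± 33.7 to 436 ± 65.8 CPM (adjusted p = 0.000348). The transcription factors Id2 (from 278 ± 33.5 to 439.6 ± 25.7 CPM) and Batf3 (from 36.1 ± 5.03 to 52.2 ± 4.46 CPM, adjusted p = 0.00186, 0.0514 without the block) are both needed for the subset to form. Irf8, the factor that specifies it, stood at 986 ± 281 and 819 ± 201 CPM and did not pass, though it was lower in the agonist library of all 4 pairs (log2 change -0.26 ± 0.09, adjusted p = 0.0741). The list's median was -0.94 within prefixes 1 and 2 and -1.24 within prefixes 3 and 4. Within prefixes 1 and 2, 3 members were called higher and 3 lower, beside 2104 and 1027 of all 24592 genes. Within prefixes 3 and 4, 3 were called higher and 10 lower, beside 818 and 369 of all 23137 genes.

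Lectins of the CD209 family, which type 2 and monocyte-derived dendritic cells carry, had some of the largest falls. Cd209a, a mouse homolog of DC-SIGN that binds mannose and fucose glycans, was at 290.5, 151, 330.3 and 239 CPM in healthy and 24.8, 20.9, 18.4 and 50.9 CPM in agonist libraries. All agonist libraries lay far below the healthy ones, and agonist replicate 4 kept the most (log2 change -3.19 ± 0.30, adjusted p = 0.000480). Cd209d, its neighbour in the same gene cluster, fell from 174 ± 70.3 to 13.3 ± 13.5 CPM (adjusted p = 0.0103) and Cd209e from 145 ± 63.7 to 5.37 ± 7.3 CPM (log2 change -5.42 ± 1.04, adjusted p = 0.0140). The log2 change of Cd209e was -6.19 without healthy replicate 4, -4.81 without agonist replicate 3 and -6.36 without agonist replicate 4, and it stayed called. Cd209f and Cd209c fell with log2 changes of -3.52 and -1.36. Cd209b, the form of marginal zone and medullary macrophages, stood at 88.9 ± 13.5 and 76.8 ± 21.5 CPM and did not pass (adjusted p = 0.279). Estimated counts of these near-identical genes can be divided among them with error. Of the 21 C-type lectin and uptake receptors tested, 4 rose, 12 fell and 5 did not pass, and their median log2 change was -1.13.

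Among 18 markers of type 2 dendritic cells, 5 rose, 9 fell and 4 did not pass, with a median log2 change of -0.23 (without the block 2 rose and 7 fell). The galactose-type lectin Mgl2 fell from 196 ± 44.8 to 43.3 ± 12.8 CPM (adjusted p = 0.000666) and Clec10a, its close relative, from 106 ± 25.5 to 40.4 ± 6.56 CPM (adjusted p = 8.98e-06). Klf4, which type 2 cells that prime T helper 2 responses need, fell from 76.6 ± 22.6 to 29.8 ± 4.61 CPM (adjusted p = 0.000705). Other members went up: Clec4a4, the DCIR2 lectin of resident type 2 cells, from 4.45 ± 1.05 to 15.4 ± 6.65 CPM (adjusted p = 0.00503), and Tbx21, which encodes T-bet, from 4.85 ± 2.43 to 13.8 ± 6.14 CPM (adjusted p = 0.000240). The list thus had no single direction, with a median of -0.14 within prefixes 1 and 2 and -0.48 within prefixes 3 and 4.

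Langerin fell as well. Cd207, which encodes it and marks Langerhans cells and dermal type 1 cells, was at 52.1, 45.7, 43.4 and 51.1 CPM in healthy and 2.48, 9.34, 2.13 and 11 CPM in agonist libraries. Agonist replicates 2 and 4 kept more than replicates 1 and 3, and all lay below the healthy range (log2 change -3.22 ± 0.47, adjusted p = 0.00419). Aqp3, a water and glycerol channel of skin-derived dendritic cells, fell from 13.6 ± 3.79 to 1.23 ± 1.01 CPM (adjusted p = 0.00269). Epcam, the adhesion molecule of Langerhans cells, fell from 29.9 ± 6.73 to 15.8 ± 3.14 CPM (adjusted p = 0.00817). Of the 7 Langerhans cell markers tested, 1 rose, 3 fell and 3 did not pass, and their median log2 change was -0.09. That median differed in sign between prefixes 1 and 2 (-0.83) and prefixes 3 and 4 (0.17).

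Plasmacytoid dendritic cells are the main producers of type I interferon. Among 11 markers of theirs, 2 rose, 5 fell and 4 did not pass, with a median log2 change of -0.37 (without the block none of them was called). Siglech, their sialic acid lectin, was at 60.3, 143, 176 and 267 CPM in healthy and 19, 60.1, 95.4 and 119.8 CPM in agonist libraries. It was lower in the agonist library of every prefix, although the groups overlapped (log2 change -1.24 ± 0.12, adjusted p = 5.67e-05, 0.430 without the block).

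Transcription factors of dendritic cell fate moved in both directions. Of the 20 dendritic cell transcription factors tested, 7 rose, 9 fell and 4 did not pass, and their median log2 change was -0.17 (without the block 3 rose and 4 fell). Bcl6, a repressor, fell from 80.5 ± 14 to 51.1 ± 7.58 CPM (adjusted p = 0.000306), and Rbpj, the DNA-binding partner of Notch, from 275 ± 18.9 to 185 ± 12.8 CPM (adjusted p = 0.000391). Relb, the NF-kB subunit of the noncanonical arm, rose from 324 ± 35.2 to 504 ± 112 CPM (adjusted p = 0.00192). Irf4, which type 2 and migratory cells use, fell from 159.8 ± 46.6 to 120.5 ± 14.2 CPM (adjusted p = 0.0271, 0.276 without the block). Irf4 was not called without healthy replicate 2 (0.0573), agonist replicate 1 (0.0577) or agonist replicate 3 (0.101), adjusted p in brackets.

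The genes of the mature, migrating state moved the other way. Of the 22 markers of migratory and mature dendritic cells tested, 13 rose and 9 did not pass, and their median log2 change was 0.58. Ccr7, the receptor that leads dendritic cells along CCL19 and CCL21 into the T cell zone, was at 375, 389, 201 and 249 CPM in healthy and 625, 773, 702 and 949.7 CPM in agonist libraries. The lowest agonist library stood above the highest healthy one, and agonist replicate 4 had the most (log2 change 1.35 ± 0.20, adjusted p = 0.00172). Fscn1, the actin-bundling fascin of dendrites, was at 1191, 1691, 964 and 1237 CPM in healthy and 1897, 2103, 2049 and 3109 CPM in agonist libraries. Here too the groups stayed apart, by less (log2 change 0.84 ± 0.16, adjusted p = 0.00353). Ccl22, a ligand of CCR4, rose from 667 ± 106 to 1532 ± 482 CPM (adjusted p = 0.00243), and its relative Ccl17 from 21 ± 6.21 to 51.7 ± 15.2 CPM (adjusted p = 4.06e-05). Cd200, a surface ligand that restrains myeloid cells, was at 28.2, 29.5, 24.8 and 20.6 CPM in healthy and 70.1, 74, 84.8 and 74.5 CPM in agonist libraries. Both groups were narrow and far apart (log2 change 1.56 ± 0.10, adjusted p = 2.22e-06). The protease inhibitors Serpinb6b (1.16) and Cst7 (1.20) and the tetraspanin Cd63 (0.90) rose as well. Cd83, a maturation marker, stood at 261 ± 10.1 and 248 ± 28.4 CPM and did not pass (adjusted p = 0.503). The median of the list was 0.32 within prefixes 1 and 2 and 0.86 within prefixes 3 and 4. Within prefixes 1 and 2, 10 members were called higher and 2 lower, and within prefixes 3 and 4, 14 higher and 0 lower. Among 15 genes of the actin and migration machinery, 6 rose and 9 did not pass, with a median log2 change of 0.21 (without the block 3 rose).

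**Figure D3:**
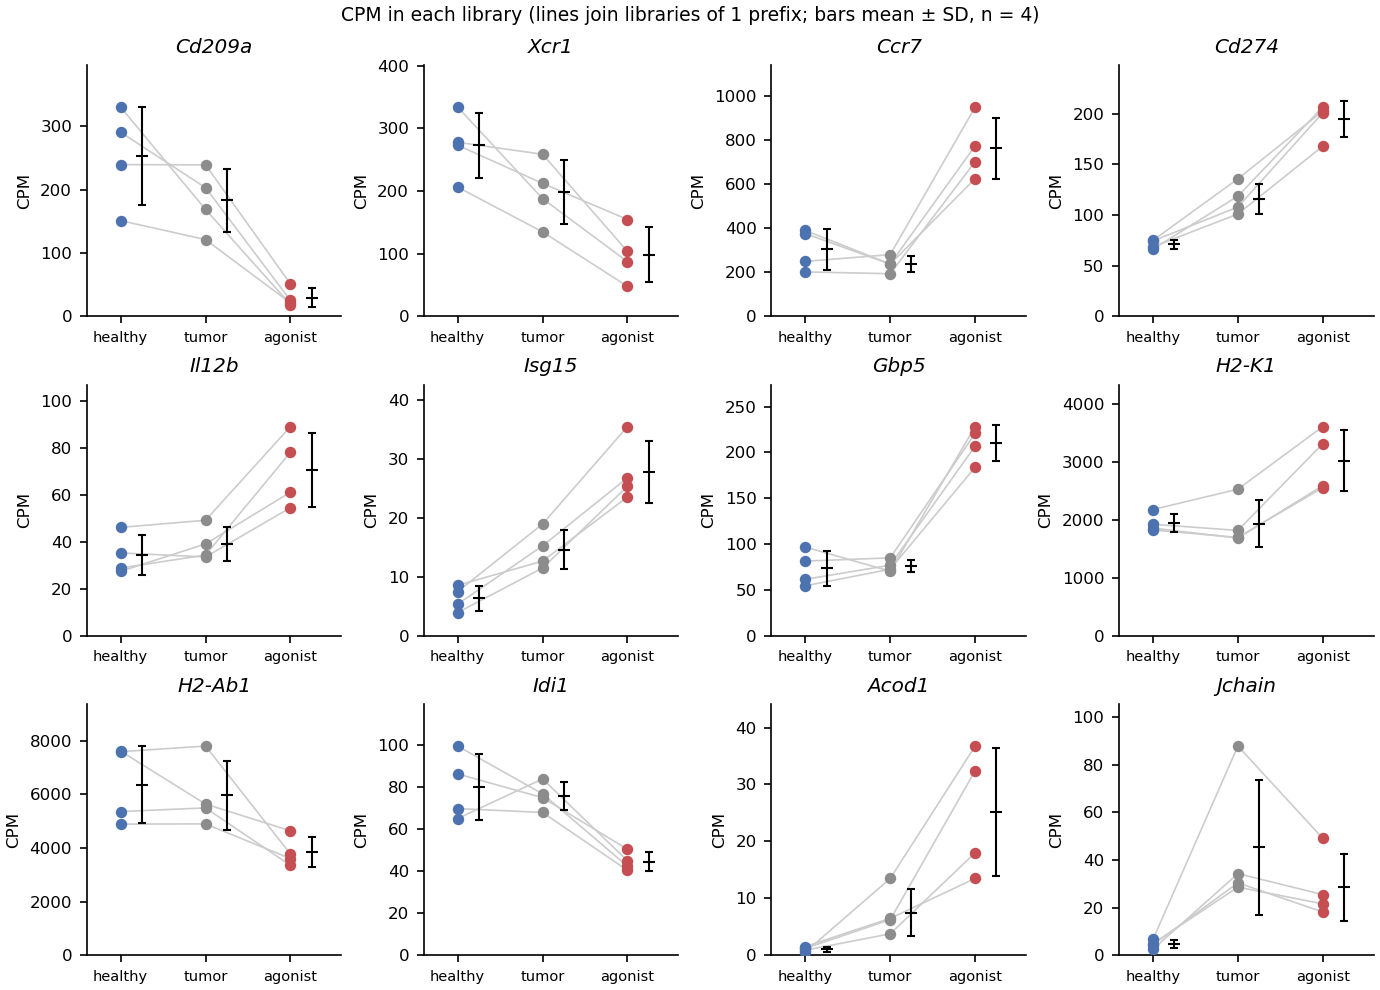
CPM (y axis, linear from 0) of 12 genes in each library of the healthy, tumor-draining and agonist groups, with grey lines joining libraries of 1 prefix and black bars for mean ± SD. Cd209a, Xcr1, H2-Ab1 and Idi1 are lower and Ccr7, Cd274, Il12b, Isg15, Gbp5, H2-K1, Acod1 and Jchain higher in the 4 agonist than in the 4 healthy libraries, with no overlap between those 2 groups in any panel.

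The receptor that the agonist engages rose by a small step. Cd40 was at 138, 119, 108 and 117 CPM in healthy and 155, 151, 148 and 164 CPM in agonist libraries. All agonist libraries lay above the healthy ones (log2 change 0.36 ± 0.08, adjusted p = 0.00521, 0.138 without the block). Of the 22 genes of the CD40 and NF-kB pathway tested, 13 rose, 1 fell and 8 did not pass, and their median log2 change was 0.33 (without the block 6 rose). Traf1, an adaptor that NF-kB induces, was at 385, 414, 329.9 and 384 CPM in healthy and 579.6, 647, 668 and 683 CPM in agonist libraries. The groups did not overlap (log2 change 0.77 ± 0.08, adjusted p = 7.80e-05). Traf3, which holds the noncanonical arm in check until CD40 is engaged, rose from 85.1 ± 9.63 to 128 ± 27.4 CPM (adjusted p = 0.000705). Nfkbia, the inhibitor that NF-kB itself induces, rose from 309 ± 20.9 to 457 ± 74 CPM (adjusted p = 0.00132). Nfkb2, the p100 precursor of the noncanonical arm, rose from 268 ± 36.4 to 419 ± 104 CPM (adjusted p = 0.000474, 0.0612 without the block), and the survival factor Bcl2l1 from 31.2 ± 5.48 to 60.2 ± 8.79 CPM (adjusted p = 0.00223). Other core members did not pass: Nfkb1, the p105 precursor of the canonical arm, stood at 426 ± 124 and 393 ± 88.3 CPM (adjusted p = 0.386) and the kinase Map3k14, called NIK, at 131 ± 25.5 and 113 ± 23.6 CPM (adjusted p = 0.0551).

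Promoter letters were read for this list from RefSeq (GRCm38.p6), over the 250 bases before the annotated start. GGGNNTTTCC on either strand, a common form of the NF-kB site, was in 6 of the 19 members with an entry (31.6%; 22 members were tested) and in 1.65% of the 27025 genes with an entry. A match describes letters and is no bound site. The window of Nfkb2 (chr19:46304487-46304736, plus strand) is shown as an example, 5′ to 3′ on the gene's strand, with the match in capitals, its first base 11 bases before the start.
Nfkb2: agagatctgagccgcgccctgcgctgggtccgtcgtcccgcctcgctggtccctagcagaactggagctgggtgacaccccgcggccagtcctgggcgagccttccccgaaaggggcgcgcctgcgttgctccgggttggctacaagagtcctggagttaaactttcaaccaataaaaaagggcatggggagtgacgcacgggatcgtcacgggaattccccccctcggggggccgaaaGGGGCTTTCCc

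Costimulatory genes rose for the most part. Of the 13 costimulatory ligands and receptors tested, 7 rose, 2 fell and 4 did not pass, and their median log2 change was 0.36 (without the block 3 rose). Cd80, a ligand of CD28, was at 23.3, 17.6, 16.4 and 16.4 CPM in healthy and 48.8, 38.4, 33.6 and 24.4 CPM in agonist libraries. The lowest agonist library was just above the highest healthy one (log2 change 0.95 ± 0.11, adjusted p = 0.000171). Cd86, the other CD28 ligand, rose from 176 ± 7.35 to 235 ± 30.7 CPM (adjusted p = 0.00516, 0.0523 without the block). Cd70, the ligand of CD27, was scarce throughout, at 0.904, 0.448, 0.267 and 0.250 CPM in healthy and 2.23, 1.98, 1.67 and 2.84 CPM in agonist libraries. Even so, the agonist libraries lay above all healthy ones (log2 change 2.27 ± 0.38, adjusted p = 0.00141). Tnfsf4, the OX40 ligand, was at 2.91, 2.8, 1.49 and 1.61 CPM in healthy and 16.5, 13.3, 10.7 and 5.93 CPM in agonist libraries. Agonist replicate 4 was the lowest of its group and still above the healthy range (log2 change 2.37 ± 0.21, adjusted p = 2.62e-05). Tnfsf9, the 4-1BB ligand, stood at 5.9 ± 0.748 and 4.74 ± 0.864 CPM (adjusted p = 0.148), and Icosl, the ligand of ICOS, at 296 ± 7.91 and 252 ± 62.8 CPM (adjusted p = 0.120).

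Inhibitory genes rose beside them. Of the 20 coinhibitory and tolerogenic genes tested, 11 rose, 2 fell and 7 did not pass, and their median log2 change was 1.27 (without the block 10 rose and 1 fell). Cd274, which encodes PD-L1, was at 66.2, 74.3, 74.9 and 68.5 CPM in healthy and 207, 201, 203 and 168 CPM in agonist libraries. The spread within each group was small against the distance between them (log2 change 1.45 ± 0.08, adjusted p = 7.10e-07). Pdcd1lg2, which encodes PD-L2, was at 19.7, 19.1, 24.3 and 22.5 CPM in healthy and 43.7, 42.9, 46.8 and 40.6 CPM in agonist libraries. It too had narrow groups with no overlap (log2 change 1.03 ± 0.09, adjusted p = 3.40e-05). Lgals9, a galectin that binds TIM-3, rose from 28.6 ± 7.05 to 72 ± 16.2 CPM (adjusted p = 1.93e-05). The receptor tyrosine kinase Axl, which damps innate signals, rose from 169 ± 38.8 to 418 ± 89.2 CPM (adjusted p = 0.00334). Havcr2, which encodes TIM-3, fell from 189 ± 21 to 116 ± 28.6 CPM (adjusted p = 0.00289). Tgfb1 stood at 72.9 ± 20.8 and 74.4 ± 15.3 CPM (adjusted p = 0.750) and Ido1, an enzyme that breaks down tryptophan, at 3.6 ± 2.07 and 12.4 ± 18.9 CPM (adjusted p = 0.529), with agonist replicate 1 at 40.7 CPM apart from the rest.

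Type I interferons turn on genes mainly through the interferon-stimulated response element, and interferon gamma acts in part through the factor IRF1. Nearly the whole type I list rose. Of the 27 type I interferon response genes tested, 25 rose and 2 did not pass, and their median log2 change was 1.68. Isg15, a ubiquitin-like modifier, was at 5.35, 3.92, 7.47 and 8.55 CPM in healthy and 26.8, 25.4, 35.5 and 23.6 CPM in agonist libraries. The groups stood well apart (log2 change 2.16 ± 0.18, adjusted p = 3.48e-05). Rsad2, which encodes the antiviral enzyme viperin, was at 15.8, 12.8, 17.2 and 19.2 CPM in healthy and 50.4, 47.6, 54.6 and 47.1 CPM in agonist libraries. Its agonist libraries agreed closely with each other (log2 change 1.63 ± 0.12, adjusted p = 1.40e-05). Irf7, which amplifies interferon production, was at 51.9, 49.8, 86.4 and 129 CPM in healthy and 216, 273, 426 and 371 CPM in agonist libraries. Replicates 1 and 2 were the lower pair in both groups, and no agonist library overlapped a healthy one (log2 change 2.07 ± 0.15, adjusted p = 2.34e-05). Oasl1, of the oligoadenylate synthetase family, rose from 6.72 ± 2.55 to 44 ± 6.91 CPM (adjusted p = 3.40e-05). The RNA sensor RIG-I, Ddx58, rose from 53.4 ± 4.41 to 128 ± 22.5 CPM (adjusted p = 1.43e-05). The list's median was 2.04 within prefixes 1 and 2 and 1.37 within prefixes 3 and 4.

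The interferon gamma list holds the guanylate-binding proteins and immunity-related GTPases that attack the vacuoles of intracellular microbes. Of the 22 genes of the interferon gamma response tested, 19 rose, 1 fell and 2 did not pass, and their median log2 change was 1.36 (without the block 18 rose). Gbp5, which also promotes inflammasome assembly, was at 81.4, 96.7, 54.4 and 61.5 CPM in healthy and 221, 228, 184 and 207 CPM in agonist libraries. Its agonist libraries lay well above the healthy ones (log2 change 1.54 ± 0.12, adjusted p = 2.28e-05). Gbp2 was at 168, 167, 149 and 183 CPM in healthy and 574, 531, 515 and 549.8 CPM in agonist libraries. Both groups were tight (log2 change 1.70 ± 0.14, adjusted p = 4.90e-05). Irf1, which relays the interferon gamma signal, was at 309, 312, 232 and 292 CPM in healthy and 463, 444, 509 and 548 CPM in agonist libraries. The change was smaller, with no overlap (log2 change 0.78 ± 0.10, adjusted p = 0.000300). Socs1, a feedback inhibitor of the pathway, rose from 6.02 ± 1.57 to 15.8 ± 4.45 CPM (adjusted p = 7.80e-05). The GTPases Gbp6 (2.26), Irgm1 (1.12), Irgm2 (1.29) and Tgtp1 (1.43) rose likewise. Copies of these families are alike, and their counts are uncertain against each other. The member that fell was Ciita, the master activator of class II genes (from 646 ± 199.98 to 499 ± 155 CPM, adjusted p = 0.0188, 0.578 without the block). Ciita was not called without healthy replicate 4 (0.0657), adjusted p in brackets. Gbp9 stood at 211 ± 18.4 and 212 ± 38 CPM and did not pass (adjusted p = 0.949).

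The interferons' own RNA was scarce. Ifng, which encodes interferon gamma, was at 1.37, 0.308, 0.936 and 0.292 CPM in healthy and 3.16, 1.7, 3.67 and 1.9 CPM in agonist libraries. Healthy replicate 1 came close to the lowest agonist library without reaching it (log2 change 1.94 ± 0.39, adjusted p = 0.00471). Among 6 interferon and interferon receptor genes, 3 rose, 1 fell and 2 did not pass, with a median log2 change of 0.11 (without the block 1 rose). Ifnar1, a chain of the type I receptor, stood at 154 ± 16.6 and 145 ± 14.2 CPM (adjusted p = 0.332).

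Promoter windows of 4 of these genes are shown as examples. They were picked from called members whose window holds the letters given next, so the match in them was fixed beforehand. GAAANNGAAA on either strand, the core of the interferon-stimulated response element, was in 3.46% of the 27025 genes with an entry. Of the type I list 19 of 27 members had an entry, and of the interferon gamma list 14 of 22, under the 80% set for giving a share. Among those with an entry, 8 type I and 11 interferon gamma members held the letters, so 11 type I and 3 interferon gamma windows did not. The windows are the 250 bases before the start of Isg15, chr4:156200819-156201068, minus strand, of Rsad2, chr12:26456453-26456702, minus strand, of Gbp5, chr3:142496684-142496933, plus strand, and of Gbp2, chr3:142620413-142620662, plus strand, in GRCm38.p6 and 5′ to 3′ on the gene's strand. Matches are in capitals, and Isg15 has 3 that overlap.
Isg15: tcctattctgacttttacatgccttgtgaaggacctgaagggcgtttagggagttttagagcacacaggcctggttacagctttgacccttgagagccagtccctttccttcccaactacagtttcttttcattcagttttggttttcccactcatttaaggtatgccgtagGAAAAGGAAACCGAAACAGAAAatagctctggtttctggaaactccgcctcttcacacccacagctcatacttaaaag
Rsad2: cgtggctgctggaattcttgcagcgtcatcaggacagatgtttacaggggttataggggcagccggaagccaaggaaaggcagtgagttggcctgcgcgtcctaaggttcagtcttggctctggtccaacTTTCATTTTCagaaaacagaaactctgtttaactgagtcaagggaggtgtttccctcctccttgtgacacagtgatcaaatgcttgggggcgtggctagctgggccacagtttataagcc
Gbp5: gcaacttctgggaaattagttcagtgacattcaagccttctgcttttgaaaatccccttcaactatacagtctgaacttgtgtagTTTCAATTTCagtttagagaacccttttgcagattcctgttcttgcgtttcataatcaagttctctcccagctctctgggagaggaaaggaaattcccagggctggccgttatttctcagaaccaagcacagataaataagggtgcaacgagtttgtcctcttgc
Gbp2: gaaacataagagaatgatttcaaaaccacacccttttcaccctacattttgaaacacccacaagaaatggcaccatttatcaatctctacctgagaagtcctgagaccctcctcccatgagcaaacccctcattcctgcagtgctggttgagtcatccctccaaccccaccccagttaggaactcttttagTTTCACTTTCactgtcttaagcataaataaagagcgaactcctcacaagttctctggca

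Most cytokine genes rose, many of them from a low base. Of the 21 cytokine ligands tested, 13 rose and 8 did not pass, and their median log2 change was 0.97. Il12b, the p40 subunit shared by interleukins 12 and 23, was at 35.2, 46.1, 27.4 and 28.8 CPM in healthy and 54.5, 89.1, 61.1 and 78.2 CPM in agonist libraries. It was higher in the agonist library of every prefix, and replicate 2 was the highest in both groups (log2 change 1.04 ± 0.12, adjusted p = 0.000165). Il27, a subunit of interleukin 27, was at 0.977, 0.672, 0.688 and 0.688 CPM in healthy and 3.76, 2.68, 3.44 and 2.89 CPM in agonist libraries. These are low levels that nonetheless kept apart (log2 change 2.08 ± 0.23, adjusted p = 9.37e-05). Ebi3, its partner chain, rose from 22.1 ± 2.01 to 47.2 ± 9.25 CPM (adjusted p = 3.78e-05). Il6, an inducer of STAT3, was at 0.855, 1.12, 0.611 and 0.501 CPM in healthy and 5.25, 5.96, 3.71 and 2.78 CPM in agonist libraries. The agonist libraries were all several times the healthy ones (log2 change 2.52 ± 0.26, adjusted p = 6.54e-05). Il1rn, the natural antagonist of interleukin 1, rose from 17.1 ± 1.74 to 94.4 ± 31.1 CPM (adjusted p = 0.000982), while Il1b stood at 61.6 ± 2.46 and 67.7 ± 17.6 CPM (adjusted p = 0.856). Il18, which acts with interleukin 12 on cells that make interferon gamma, rose from 22 ± 1.41 to 40.5 ± 5.77 CPM (adjusted p = 9.96e-05). Il23a, the other subunit of interleukin 23, stood at 0.352 ± 0.123 and 0.710 ± 0.304 CPM (adjusted p = 0.137).

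Among 15 genes of the STAT3 and interleukin 6 response, 7 rose, 1 fell and 7 did not pass, with a median log2 change of 0.23 (without the block 2 rose). Socs3, the inhibitor that STAT3 induces, was at 18.4, 26, 18.3 and 24.3 CPM in healthy and 72.5, 61.2, 129.6 and 76.2 CPM in agonist libraries. Agonist replicate 3 was the highest, and all 4 lay above the healthy range (log2 change 1.87 ± 0.33, adjusted p = 0.00875). The interleukin 21 receptor Il21r rose from 81.6 ± 17.7 to 194 ± 21.9 CPM (adjusted p = 0.000575) and Stat3 itself from 308 ± 40.6 to 439 ± 80.1 CPM (adjusted p = 0.000459, 0.121 without the block).

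Several chemokine ligands rose, and receptors divided. Of the 20 chemokine ligands tested, 10 rose and 10 did not pass, and their median log2 change was 1.20. Cxcl10, which draws T cells that carry CXCR3, was at 8.97, 8.15, 8.96 and 14.1 CPM in healthy and 68.1, 39.1, 64.6 and 39.5 CPM in agonist libraries. Agonist replicates 1 and 3 had the most (log2 change 2.35 ± 0.30, adjusted p = 0.00155). Cxcl9, its partner, rose from 173 ± 21.9 to 286 ± 15.5 CPM (adjusted p = 0.0113). The monocyte attractant Ccl12 rose from 4.41 ± 1.37 to 14.3 ± 3.5 CPM (adjusted p = 0.000787). Xcl1, the ligand of XCR1, rose from 4.42 ± 0.965 to 10.6 ± 4.03 CPM (adjusted p = 0.00185) while the receptor's own RNA fell, as given above. Among 21 chemokine and homing receptors, 6 rose, 9 fell and 6 did not pass, with a median log2 change of -0.16 (without the block 4 rose and 5 fell). Ccr2, which monocytes and their offspring use to enter tissue, was at 340.1, 322, 496 and 399.5 CPM in healthy and 144, 129, 119 and 137 CPM in agonist libraries. The agonist group was narrow and below every healthy library (log2 change -1.54 ± 0.13, adjusted p = 3.48e-05). Itgb7, the beta chain of gut-homing integrins, fell from 254 ± 75.5 to 124 ± 33.7 CPM (adjusted p = 0.000159). Ccr6, a receptor for CCL20, rose from 6.3 ± 1.06 to 16.8 ± 3.72 CPM (adjusted p = 1.89e-05), and S1pr3, a sphingosine phosphate receptor, from 3.56 ± 0.758 to 8.9 ± 2.15 CPM (adjusted p = 0.000207).

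The pathways that load antigen on MHC molecules parted. Class I molecules present peptides cut by the proteasome to CD8 T cells, and class II molecules present peptides cut in endosomes to CD4 T cells. Of the 18 class I presentation genes tested, 15 rose and 3 did not pass, and their median log2 change was 0.41 (without the block 5 rose). Of the 15 class II presentation genes tested, 1 rose, 9 fell and 5 did not pass, and their median log2 change was -0.54 (without the block 1 rose and 5 fell). H2-K1, a classical class I heavy chain, was at 1824, 1857, 1924 and 2178 CPM in healthy and 2556, 2590.5, 3316 and 3611 CPM in agonist libraries. The groups did not overlap, and replicates 3 and 4 were the higher pair in both (log2 change 0.62 ± 0.09, adjusted p = 0.000586). B2m, the light chain, rose from 2349.6 ± 279 to 3529.7 ± 470.04 CPM (adjusted p = 0.000593). The immunoproteasome subunit Psmb10 rose from 88.7 ± 12.8 to 154 ± 24.3 CPM (adjusted p = 9.19e-05), and the nonclassical heavy chain H2-Q4 from 208 ± 23.1 to 365 ± 58.3 CPM (adjusted p = 8.55e-05). Copies of class I genes are alike, and their counts are uncertain against each other.

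H2-Ab1, a class II beta chain, was at 5359.7, 4891, 7615 and 7593 CPM in healthy and 3349.6, 3605, 4640.3 and 3776 CPM in agonist libraries. Every agonist library lay below all healthy ones, of which replicates 3 and 4 were the higher (log2 change -0.70 ± 0.12, adjusted p = 0.00173). H2-Aa, the alpha chain, fell from 8147 ± 1657 to 5076 ± 499.8 CPM (adjusted p = 0.00154). H2-DMb1, of the peptide exchange factor, fell from 405 ± 93.9 to 228 ± 13 CPM (adjusted p = 0.000326), and H2-Ob, of the factor that restrains it, from 144 ± 16.8 to 78.5 ± 19.5 CPM (adjusted p = 0.000217). March1, the ligase that removes class II molecules from the surface of resting cells, fell with them (from 204 ± 24.1 to 138 ± 21.4 CPM, adjusted p = 0.00161). The class II member that rose was Lgmn, a lysosomal endopeptidase (from 123 ± 9.49 to 284 ± 39.8 CPM, adjusted p = 0.0140). Lgmn was not called without healthy replicate 1 (0.0555), agonist replicate 2 (0.0537) or agonist replicate 4 (0.0536), adjusted p in brackets. The class I list had a median of 0.42 within prefixes 1 and 2 and 0.39 within prefixes 3 and 4. The class II list had -0.40 and -0.66.

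**Figure D4:**
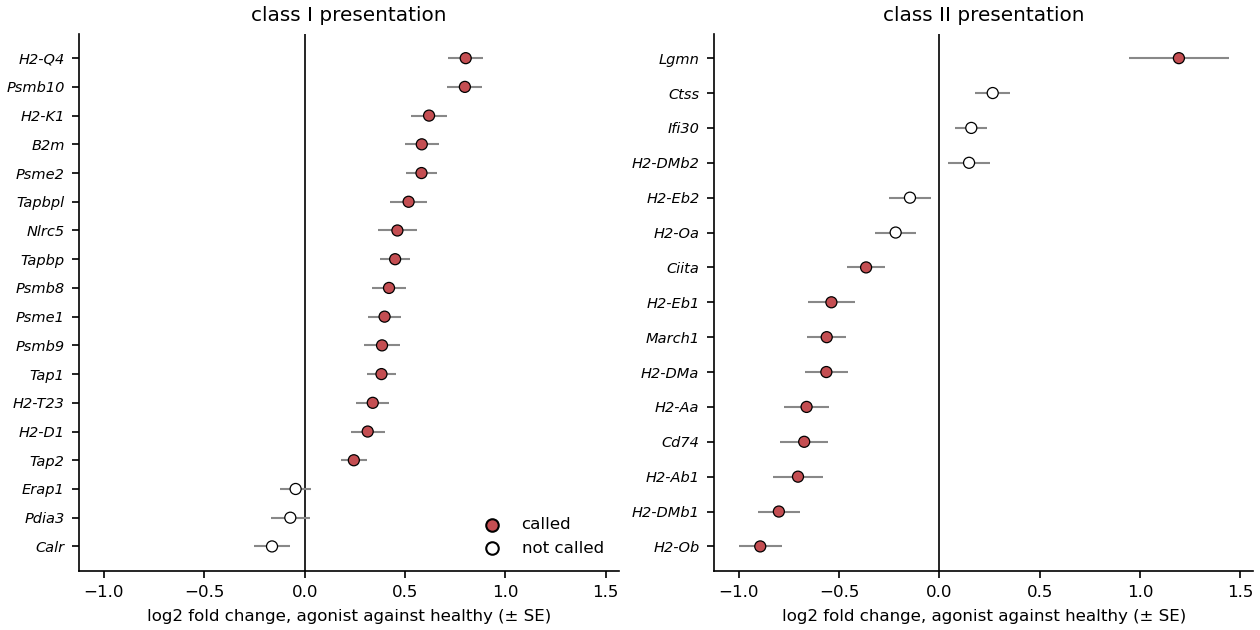
Log2 fold change between agonist and healthy libraries (x axis, ± SE) for each tested class I presentation gene (left) and class II presentation gene (right), with filled points for called genes. The 15 called class I genes lie to the right of 0 and 9 of the 10 called class II genes to the left; Lgmn is the exception.

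Receptors for microbial products rose more often than they fell. Of the 22 pattern recognition receptors tested, 10 rose, 2 fell and 10 did not pass, and their median log2 change was 0.30 (without the block 6 rose and 2 fell). Clec4e, which encodes the glycolipid receptor Mincle, was at 7.67, 7.64, 3.57 and 3.57 CPM in healthy and 56.5, 26.2, 60.7 and 33.9 CPM in agonist libraries. Agonist replicates 1 and 3 were the highest, and all stood several times above the healthy range (log2 change 2.99 ± 0.33, adjusted p = 0.000856). Nod1, a cytosolic sensor of peptidoglycan, rose from 45.3 ± 9.05 to 107 ± 26.3 CPM (adjusted p = 1.93e-05), and Tlr7, a receptor for single-stranded RNA, from 27.9 ± 5.51 to 51.6 ± 5.72 CPM (adjusted p = 0.000299). Tlr11, a profilin receptor of type 1 dendritic cells, fell from 144 ± 9.73 to 64.3 ± 17.6 CPM (adjusted p = 0.000468). Tlr9, a receptor for unmethylated DNA, stood at 65.9 ± 17.6 and 74.3 ± 11.8 CPM (adjusted p = 0.112). Among 8 Fc receptors, 2 rose, 2 fell and 4 did not pass, with a median log2 change of 0.41 (without the block 1 rose and 2 fell). Fcgr1, the high-affinity receptor for immunoglobulin G, rose from 5.21 ± 1.28 to 25.1 ± 5.37 CPM (adjusted p = 0.00802). Fcgrt, the neonatal Fc receptor that recycles immunoglobulin G, fell from 167 ± 45.8 to 83.6 ± 13.9 CPM (adjusted p = 0.000370).

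Most complement components rose. Of the 15 complement genes tested, 10 rose, 2 fell and 3 did not pass, and their median log2 change was 1.41. C3, on which all pathways of complement meet, was at 262, 338, 241 and 361 CPM in healthy and 979.8, 965, 1551 and 1777 CPM in agonist libraries. Replicates 3 and 4 were the highest agonist libraries, and none overlapped the healthy group (log2 change 2.09 ± 0.16, adjusted p = 4.06e-05). Cfb, factor B of the alternative pathway, was at 153, 209, 132 and 208 CPM in healthy and 760.03, 816, 1304 and 1211 CPM in agonist libraries. Its libraries kept the same arrangement (log2 change 2.51 ± 0.20, adjusted p = 7.43e-05). C4b rose from 7.19 ± 1.58 to 55.1 ± 16.2 CPM (adjusted p = 0.00158) and properdin, Cfp, from 206 ± 52.5 to 472 ± 138 CPM (adjusted p = 0.000150). Cd55, the decay-accelerating factor, fell from 26.2 ± 8.05 to 9.67 ± 2.62 CPM (adjusted p = 0.00584). C1qa, a chain of C1q that macrophages make, rose from 152 ± 39.7 to 413 ± 68.6 CPM (adjusted p = 0.0148). C1qa was not called without healthy replicate 1 (0.0579) or agonist replicate 4 (0.0570), adjusted p in brackets.

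Of the 16 lysosome and cathepsin genes tested, 9 rose and 7 did not pass, and their median log2 change was 0.43. Ctsd, an aspartic protease, was at 230.3, 356, 243 and 316 CPM in healthy and 667, 647, 1159 and 1043 CPM in agonist libraries. Replicates 3 and 4 again led the agonist group (log2 change 1.58 ± 0.21, adjusted p = 0.00135). The cathepsins Ctsz (0.83), Ctsc (0.88) and Ctsb (0.62) and the membrane protein Lamp1 (0.77) rose by less. Ctss, which trims the class II invariant chain, stood at 1345 ± 188 and 1609.7 ± 173 CPM (adjusted p = 0.0511).

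Genes of cholesterol synthesis fell for the most part. They are switched on together by SREBP2, which is released from the endoplasmic reticulum when sterol is short. Of the 24 genes of cholesterol synthesis and SREBP targets tested, 1 rose, 16 fell and 7 did not pass, and their median log2 change was -0.44 (without the block 7 fell). Idi1, which isomerises the isoprenoid unit, was at 99.3, 86, 69.6 and 64.9 CPM in healthy and 42.2, 50.3, 40.3 and 44.8 CPM in agonist libraries. The agonist libraries were narrow and below the healthy range (log2 change -0.84 ± 0.11, adjusted p = 0.000350). Hmgcs1, an early enzyme of the pathway, was at 78.7, 92.8, 104 and 98 CPM in healthy and 46.6, 64.7, 71.3 and 74 CPM in agonist libraries. The groups came close without overlap (log2 change -0.56 ± 0.07, adjusted p = 0.000326, 0.0912 without the block). Later enzymes fell too, among them Fdft1 (-0.54), the lanosterol demethylase Cyp51 (-0.73), Msmo1 (-0.46) and Sc5d (-0.73), with the sterol sensor Insig1 (-0.54) and the sterol carrier Stard4 (-0.69). Dhcr7, which makes the last step, stood at 10.6 ± 2.7 and 10.6 ± 2.33 CPM (adjusted p = 0.989), and Mvk, mevalonate kinase, at 11.6 ± 2.09 and 13.2 ± 2.42 CPM (adjusted p = 0.158). The list's median was -0.46 within prefixes 1 and 2 and -0.41 within prefixes 3 and 4.

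TCACNCCAC on either strand, a form of the sterol regulatory element, was in 1.22% of the 27025 genes with a promoter entry, and 16 of the 24 members had an entry, under the 80% set for giving a share. Hmgcs1 alone of the 16 held these letters, and over all genes called lower the share was 1.01%. The window of Hmgcs1 (chr13:119690101-119690350, plus strand, GRCm38.p6, 250 bases before the start) is shown with its match in capitals.
Hmgcs1: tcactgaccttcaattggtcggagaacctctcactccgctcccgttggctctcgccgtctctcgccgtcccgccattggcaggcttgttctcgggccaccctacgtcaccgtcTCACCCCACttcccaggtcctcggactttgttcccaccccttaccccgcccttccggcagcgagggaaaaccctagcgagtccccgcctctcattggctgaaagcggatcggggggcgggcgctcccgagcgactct

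Genes of sterol handling had no single direction. Of the 14 genes of cholesterol efflux and LXR targets tested, 5 rose, 3 fell and 6 did not pass, and their median log2 change was 0.27 (without the block 2 rose and 3 fell). Nr1h3, the sterol-sensing nuclear receptor LXR alpha, was at 39.3, 58.1, 40 and 67.1 CPM in healthy and 145, 129.8, 247 and 164 CPM in agonist libraries. All agonist libraries lay above the healthy ones (log2 change 1.74 ± 0.23, adjusted p = 0.00148). The apolipoprotein Apoc2 rose from 0.493 ± 0.228 to 8.25 ± 1.73 CPM (adjusted p = 0.00138). Mylip, the LXR-induced ligase that removes the LDL receptor, fell from 70.1 ± 8.51 to 47.7 ± 7.67 CPM (adjusted p = 0.000704). Cyp7b1, which takes part in making the oxysterol that guides cells through EBI2, was at 24.4, 19.8, 43.4 and 26.5 CPM in healthy libraries. In agonist libraries it was at 3.55, 6.36, 4.28 and 8.97 CPM. The agonist libraries held a few CPM each (log2 change -2.28 ± 0.31, adjusted p = 0.00214).

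Acod1, the enzyme that makes itaconate from an intermediate of the citric acid cycle, led a ranking of rises by size that took called genes whose log2 CPM averaged 2 or more and that moved 1 way in the 4 prefixes. Antigen receptor genes, predicted genes and pseudogenes were left out of it. Acod1 was at 1.2, 1.51, 0.554 and 0.876 CPM in healthy and 32.4, 13.5, 36.7 and 18 CPM in agonist libraries. Agonist replicates 1 and 3 were the highest, and every agonist library was many times any healthy one (log2 change 4.52 ± 0.50, adjusted p = 0.000906). Among 15 glycolysis genes, 9 rose, 1 fell and 5 did not pass, with a median log2 change of 0.61 (without the block 6 rose). Gapdh was at 231, 271, 369.6 and 385 CPM in healthy and 513, 452, 676 and 645 CPM in agonist libraries. Replicates 3 and 4 were higher in both groups, and the groups stayed apart (log2 change 0.87 ± 0.09, adjusted p = 4.63e-05). The enzymes Eno1 (0.86), Tpi1 (0.87) and Pgk1 (0.70), the activator Pfkfb3 (0.66) and the lactate exporter Slc16a3 (1.23) rose with it. The glucose transporter Slc2a1 stood at 24.5 ± 3.95 and 32.9 ± 7.52 CPM (adjusted p = 0.0771). Among 19 nuclear genes of oxidative phosphorylation, 8 rose and 11 did not pass, with a median log2 change of 0.15 (without the block 1 rose).

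Of the 7 metallothionein and zinc handling genes tested, 4 rose and 3 did not pass, and their median log2 change was 0.59. Mt2, a zinc-binding metallothionein, was at 5.74, 6.97, 3.8 and 3.92 CPM in healthy and 31.7, 26.2, 24.5 and 35.1 CPM in agonist libraries. Its agonist libraries were all several times the healthy ones (log2 change 2.54 ± 0.30, adjusted p = 0.000805). Mt1 rose from 26.5 ± 6.81 to 91.9 ± 16.3 CPM (adjusted p = 0.00145), and the zinc exporter Slc30a1 (0.56) and zinc sensor Mtf1 (0.59) rose by less. Among 13 heat shock genes, 5 rose, 1 fell and 7 did not pass, with a median log2 change of 0.24 (without the block 2 rose). Cryaa, a small heat shock protein known from the lens, was at 1.86, 1.32, 1.39 and 2.17 CPM in healthy and 16, 22.3, 16.5 and 26 CPM in agonist libraries. The lowest agonist library was several times the highest healthy one (log2 change 3.57 ± 0.18, adjusted p = 5.58e-07). Its relative Cryab stood at 1.54 ± 0.212 and 1.46 ± 0.343 CPM (adjusted p = 0.776). Among 15 genes of the unfolded protein response, 1 rose, 4 fell and 10 did not pass, with a median log2 change of -0.09 (without the block 1 fell). Of the 17 apoptosis regulators tested, 11 rose, 2 fell and 4 did not pass, and their median log2 change was 0.35 (without the block 6 rose). Genes that favour survival, such as Bcl2a1b (1.17), and genes that favour death, such as Bcl2l11 (0.87) and Fas (0.73), rose alike.

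Granzymes A and B and serpins of the granzyme inhibitor family rose. Of the 11 cytotoxic effector genes tested, 6 rose and 5 did not pass, and their median log2 change was 0.88. Gzmb, granzyme B, was at 3.15, 1.62, 3.84 and 2.46 CPM in healthy and 6.27, 8.73, 22.3 and 15.8 CPM in agonist libraries. Agonist replicates 3 and 4 were the highest (log2 change 2.19 ± 0.31, adjusted p = 0.00128). Serpinb9, the granzyme B inhibitor, rose from 241 ± 59 to 530.00 ± 78.6 CPM (adjusted p = 8.80e-05), and its relative Serpinb9b was at 10.2, 11.6, 9.47 and 11.9 CPM in healthy and 54.3, 61.6, 30.2 and 47.9 CPM in agonist libraries. No library of Serpinb9b crossed into the other group's range (log2 change 2.11 ± 0.18, adjusted p = 8.02e-05). Beside these values, natural killer cell markers summed to 341 to 535 CPM in healthy and 421 to 648 CPM in agonist libraries. Among 14 natural killer cell markers, 3 rose, 1 fell and 10 did not pass, with a median log2 change of 0.19 (without the block 1 rose and 1 fell). Their receptor Ncr1 stood at 9.83 ± 2.93 and 11.9 ± 5.65 CPM (adjusted p = 0.544), and Klrd1, the CD94 chain, fell from 32.9 ± 8.66 to 18.1 ± 3.2 CPM (adjusted p = 0.000296). The part of natural killer and T cells in the granzyme values was not tested.

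T cell genes, present at low levels in this sort, were lower. Of the 17 T cell markers tested, 2 rose, 10 fell and 5 did not pass, and their median log2 change was -0.66 (without the block 1 rose and 4 fell). Cd3d, a chain of the T cell receptor complex, was at 9.58, 8.37, 6.11 and 9.16 CPM in healthy and 5.92, 2.96, 3.74 and 5.07 CPM in agonist libraries. The highest agonist library lay just under the lowest healthy one (log2 change -0.92 ± 0.19, adjusted p = 0.00484). Lef1, a transcription factor of naive T cells, was at 9.85, 15.7, 12.9 and 17.2 CPM in healthy and 6.34, 6.1, 5.21 and 8.97 CPM in agonist libraries. It showed the same order (log2 change -1.05 ± 0.16, adjusted p = 0.000781). The list summed to 312 to 593 CPM in healthy and 256 to 524 CPM in agonist libraries. Among 16 genes of innate-like lymphocytes, 2 rose, 4 fell and 10 did not pass, with a median log2 change of -0.42 (without the block 1 rose and 2 fell). Il1rl1, the interleukin 33 receptor, fell from 6.01 ± 0.561 to 2.61 ± 0.637 CPM (adjusted p = 0.000697), and Cxcr6 from 14 ± 3.25 to 7.34 ± 1.55 CPM (adjusted p = 0.00659).

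Neutrophil genes were low in healthy libraries and higher in agonist ones. Of the 9 neutrophil markers tested, 8 rose and 1 did not pass, and their median log2 change was 1.68 (without the block 3 rose). Retnlg, a secreted protein of neutrophils, was at 0.0244, 0.224, 0.535 and 0.209 CPM in healthy and 1.53, 7.5, 12 and 1.31 CPM in agonist libraries. The agonist libraries varied widely, with replicates 2 and 3 the highest (log2 change 4.30 ± 0.47, adjusted p = 0.000326). Csf3r, the G-CSF receptor, rose from 14.3 ± 2.0 to 30 ± 5.15 CPM (adjusted p = 0.00565). Ly6g, Camp and Elane were below the filter on low counts. Among 10 plasma cell markers, 6 rose, 1 fell and 3 did not pass, with a median log2 change of 1.48 (without the block 4 rose). Jchain, which joins polymeric immunoglobulin, was at 4.86, 4.37, 6.61 and 2.48 CPM in healthy and 21.6, 18.1, 49.1 and 25.5 CPM in agonist libraries. Replicate 3 was the highest in both groups (log2 change 2.59 ± 0.24, adjusted p = 0.000233). Ighg2c, a heavy chain constant gene, was at 2.37, 3.3, 5.64 and 1.9 CPM in healthy and 11.8, 33.6, 121 and 78 CPM in agonist libraries. Its agonist values spread about as far as those of Retnlg, with replicates 3 and 4 on top (log2 change 3.93 ± 0.54, adjusted p = 0.00341). Among 14 B cell markers, 4 rose, 2 fell and 8 did not pass, with a median log2 change of 0.19 (without the block 1 rose and 1 fell). Their median was -0.04 within prefixes 1 and 2 and 0.45 within prefixes 3 and 4. Ms4a1, which encodes CD20, stood at 56.4 ± 20.6 and 85.1 ± 18.4 CPM (adjusted p = 0.0725).

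Most macrophage markers rose. Of the 17 macrophage markers tested, 11 rose, 2 fell and 4 did not pass, and their median log2 change was 0.84. The list summed to 2091 to 3156 CPM in healthy and 3452 to 6018 CPM in agonist libraries. Cd5l, a secreted protein of macrophages that LXR induces, was at 6.55, 4.96, 5.16 and 6.63 CPM in healthy and 88.3, 43.4, 60.3 and 44.9 CPM in agonist libraries. The groups were far apart, with agonist replicate 1 the highest (log2 change 3.29 ± 0.19, adjusted p = 1.11e-05). Siglec1, the sialic acid receptor of sinus macrophages, was at 38.8, 44.6, 42.2 and 52.8 CPM in healthy and 137, 117, 270.2 and 153 CPM in agonist libraries. Here agonist replicate 3 was the highest (log2 change 1.87 ± 0.20, adjusted p = 0.000570). The efferocytosis receptor Mertk rose from 21.8 ± 6.51 to 70.4 ± 14.3 CPM (adjusted p = 0.0129). Cd163, the haemoglobin scavenger receptor, went the other way, at 20.7, 14.7, 24.8 and 18.2 CPM in healthy and 2.93, 3.19, 2.0 and 5.69 CPM in agonist libraries. All agonist libraries lay below the healthy ones (log2 change -2.57 ± 0.27, adjusted p = 0.000308). Adgre1, which encodes F4/80, fell from 155 ± 33.9 to 97.6 ± 6.82 CPM (adjusted p = 0.00108). Among 14 monocyte markers, 2 rose, 3 fell and 9 did not pass, with a median log2 change of 0.31 (without the block 1 rose and 2 fell). The part of macrophages and monocytes in the complement, lysosome and LXR values was not tested.

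Of 12 stromal and 5 erythroid markers none was called by edgeR, DESeq2 or limma voom, and none had an unadjusted p under 0.05. Of 10 epithelial and pancreatic tumor markers, Epcam alone was called, and it fell. The median log2 change of the 10 was 0.58, and 8 of them had a positive value. Within prefixes 1 and 2, 2 members were called higher and 1 lower, and within prefixes 3 and 4, 1 higher and 0 lower. The list, which holds keratins and other epithelial and tumor genes, summed to 61.9 to 198 CPM in healthy and 53.5 to 595 CPM in agonist libraries. The top value came from agonist replicate 1, where Krt8 was at 149 CPM.

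Proliferation genes were called in unlike numbers within the pairs of prefixes. Of the 30 cell cycle and replication genes tested, 5 rose and 25 did not pass, and their median log2 change was 0.16 (without the block none of them was called). Within prefixes 1 and 2, 18 of the 30 were called higher (median 0.39), and within prefixes 3 and 4 none was (median -0.07). Over all genes, the fit within prefixes 1 and 2 called 2104 higher and 1027 lower of 24592. The fit within prefixes 3 and 4 called fewer, 818 higher and 369 lower of 23137. Whether the change differs between the pairs of prefixes was not tested. Mki67, which marks cycling cells, was at 98, 137, 221 and 248 CPM in healthy and 113, 195, 209 and 193 CPM in agonist libraries. The groups overlapped, with the agonist library higher in prefixes 1 and 2 and lower in prefixes 3 and 4 (log2 change 0.07 ± 0.12, adjusted p = 0.725). Among 18 immediate early genes, 1 rose, 5 fell and 12 did not pass, with a median log2 change of -0.21 (without the block 2 fell). Within prefixes 1 and 2, 8 of them were called lower (median -0.34), and within prefixes 3 and 4, 1 was (median 0.01). Fos, a subunit of AP-1 that is induced quickly by stimulation and by cell handling, was at 315, 389, 284 and 237 CPM in healthy and 141, 169, 162 and 163 CPM in agonist libraries. All agonist libraries lay below the healthy range (log2 change -0.94 ± 0.12, adjusted p = 0.000329). Among 20 cytosolic ribosomal protein genes, 1 fell and 19 did not pass, with a median log2 change of -0.11 (without the block none of them was called).

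The ranking by size that Acod1 led left out other large rises. Among these, the immunoglobulin genes Ighg1 (5.51) and Ighg2c (3.93) were not admitted, nor were Retnlg (4.30) and Chil3 (4.16), whose log2 CPM averaged under 2. In the ranking, the largest rises after Acod1 were those of the transporter Abca13 (4.11), the formyl peptide receptor Fpr2, Cryaa, the matrix protein Spon1, and Ramp3, a partner of calcitonin-type receptors. Cd5l, Clec4e, C4b, the uridine phosphorylase Upp1, the lipase Lipg (2.81) and the selenoprotein Selenom (2.79) followed. Fpr2 was at 1.61, 0.812, 1.13 and 0.939 CPM in healthy and 27.5, 9.29, 16.3 and 9.91 CPM in agonist libraries. Ramp3 was at 3.47, 3.16, 2.45 and 1.86 CPM in healthy and 44, 27.1, 23.8 and 24 CPM in agonist libraries. For both, agonist replicate 1 had the most and no library overlapped the other group. Spon1 was at 5.08, 5.82, 3.17 and 4.8 CPM in healthy and 57.1, 44.8, 76.5 and 42.7 CPM in agonist libraries. The lowest agonist library was above the highest healthy one. Upp1 was called with less margin (log2 change 2.88 ± 0.73, adjusted p = 0.0354). Upp1 was not called without healthy replicate 1 (0.110), healthy replicate 2 (0.0731), healthy replicate 3 (0.109), healthy replicate 4 (0.0853), agonist replicate 1 (0.0973), agonist replicate 2 (0.0581) or agonist replicate 4 (0.107), adjusted p in brackets. The largest falls included those of Cd209e, the neurotrophin receptor Ngfr, Cd209d, Cd207, Cd209a, Pi16 (-3.02), Hepacam2 (-2.75), Cd163, Apod (-2.49), Chil5 (-2.43) and the calcium channel Cacna1i (-2.30). Ngfr was at 29.2, 29.8, 107 and 55.4 CPM in healthy and 1.02, 2.42, 1.03 and 12.9 CPM in agonist libraries. Agonist replicate 4 stood apart from the other agonist libraries (log2 change -4.10 ± 0.74, adjusted p = 0.0109). The log2 change of Ngfr was -3.51 without agonist replicate 3 and -4.92 without agonist replicate 4, and it stayed called. These genes were chosen for size and direction, which are therefore a description.

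By the smallest p, again a description, the leading genes were Glipr2, Ramp3, Ly6i, Abca9 (-1.67), Fpr2, the semaphorin Sema7a (1.99), Cryaa, Cd274, Bcl2l14 (1.52) and Adap1 (1.22). Glipr2, a protein of Golgi membranes, was at 127, 131, 109 and 111 CPM in healthy and 515, 504, 365 and 403 CPM in agonist libraries. Replicates 1 and 2 were the higher pair of the agonist group (log2 change 1.89 ± 0.07, adjusted p = 1.19e-07). Ramp3 (log2 change 3.43 ± 0.15, adjusted p = 2.32e-07), Ly6i (log2 change 2.24 ± 0.10, adjusted p = 2.42e-07) and Fpr2 (log2 change 3.73 ± 0.19, adjusted p = 4.63e-07) were among those that followed. Positions in GRCm38 of the genes most relied on are Xcr1 (chromosome 9, 123852315 to 123862029), Cd209a (chromosome 8, 3743397 to 3748984), Ccr7 (chromosome 11, 99144196 to 99155077), Cd274 (chromosome 19, 29367455 to 29388095), Il12b (chromosome 11, 44400063 to 44414033), H2-Ab1 (chromosome 17, 34257689 to 34269419), H2-K1 (chromosome 17, 33996017 to 34000347), Acod1 (chromosome 14, 103046977 to 103056573), Idi1 (chromosome 13, 8885501 to 8892451) and Glipr2 (chromosome 4, 43957401 to 43979118).

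With the tumor-draining libraries without agonist, the values can be set out in steps. A first step runs from healthy to tumor-draining nodes and a second from there to agonist nodes. The steps share libraries with each other and with the comparison above, so they are set side by side, with log2 changes for the first and second step in brackets and no test of likeness. Called genes made up 6.3% of all genes in the first step (4.02% higher, 2.28% lower) and 13.3% in the second (6.74% higher, 6.58% lower).

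Jchain was at 28.6, 30.4, 87.9 and 34.3 CPM in tumor-draining libraries, which gave 3.20 in the first step (adjusted p = 0.00144) and -0.61 in the second (adjusted p = 0.109). Retnlg (4.60, -0.30), Socs3 (1.62, 0.25), Il1rn (1.73, 0.66) and Spon1 (2.83, 0.61) were likewise called in the first step and not in the second. Gbp5 was at 84.9, 70.4, 72.5 and 76.9 CPM in tumor-draining libraries and was called in the second step (1.45, adjusted p = 7.25e-05) but not in the first (0.08, adjusted p = 0.700). Cryaa (0.22, 3.35), Selenom (0.00, 2.78), Mt2 (-0.11, 2.65), Il6 (-0.02, 2.55), Siglec1 (0.03, 1.84) and Serpinb9b (-0.32, 2.43) were also called in the second step alone. Both steps were called, with 1 sign, for Cd274 (0.70, 0.75), Cd200 (0.71, 0.85), Isg15 (1.21, 0.94), Oasl1 (1.16, 1.58), Acod1 (2.74, 1.78), Fpr2 (2.16, 1.57), Cd5l (1.25, 2.04) and Cd163 (-1.04, -1.53). A gene not called in a step may still have changed in it. Whether the steps of a gene differ in size was not tested.

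By list, 21 of 27 type I interferon genes were called higher and 1 lower in the first step, and 17 higher in the second. Of the 22 interferon gamma genes 2 were called higher in the first step, and 15 higher and 1 lower in the second. The class I list had 15 called higher in the second step and a median of -0.01 in the first. The class II list had 3 called higher in the first step and 11 lower in the second, and the cholesterol synthesis list 15 lower in the second with a median of 0.02 in the first. The neutrophil list had 5 called higher in the first step and a median of -0.09 in the second. Of the cell cycle genes 14 were called higher in the first step and 3 lower in the second.

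A few genes had steps of opposite sign. Gpr183, which encodes the oxysterol receptor EBI2, was at 131, 94.1, 156 and 128 CPM in healthy, 197, 145, 189 and 179 CPM in tumor-draining and 90, 72.2, 110.5 and 95.1 CPM in agonist libraries. It rose by 0.49 in the first step (adjusted p = 0.00447) and changed by -0.96 in the second (adjusted p = 2.56e-05), a total of -0.46 (adjusted p = 0.000837, 0.140 without the block). Marco, a scavenger receptor of medullary macrophages, was at 44.7, 36.2, 37.6 and 43.4 CPM in healthy, 27.6, 21.2, 17.1 and 26.8 CPM in tumor-draining and 84.2, 58.7, 76.5 and 47.2 CPM in agonist libraries. It changed by -0.81 in the first step (adjusted p = 0.0353) and by 1.53 in the second (adjusted p = 0.00105), a total of 0.71 (adjusted p = 0.0223). Marco was not called without healthy replicate 1 (0.0789), healthy replicate 2 (0.0701), healthy replicate 3 (0.0802), agonist replicate 1 (0.0722) or agonist replicate 2 (0.0570), adjusted p in brackets. Cyp7b1 was at 44, 40.7, 59.7 and 48.8 CPM in tumor-draining libraries, with 0.78 in the first step (adjusted p = 0.148) and -3.07 in the second (adjusted p = 0.00107). Malat1, whose level also followed the prefix, had -0.65 in the first step (adjusted p = 0.0122) and 0.76 in the second (adjusted p = 0.00187).

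**Figure D5:**
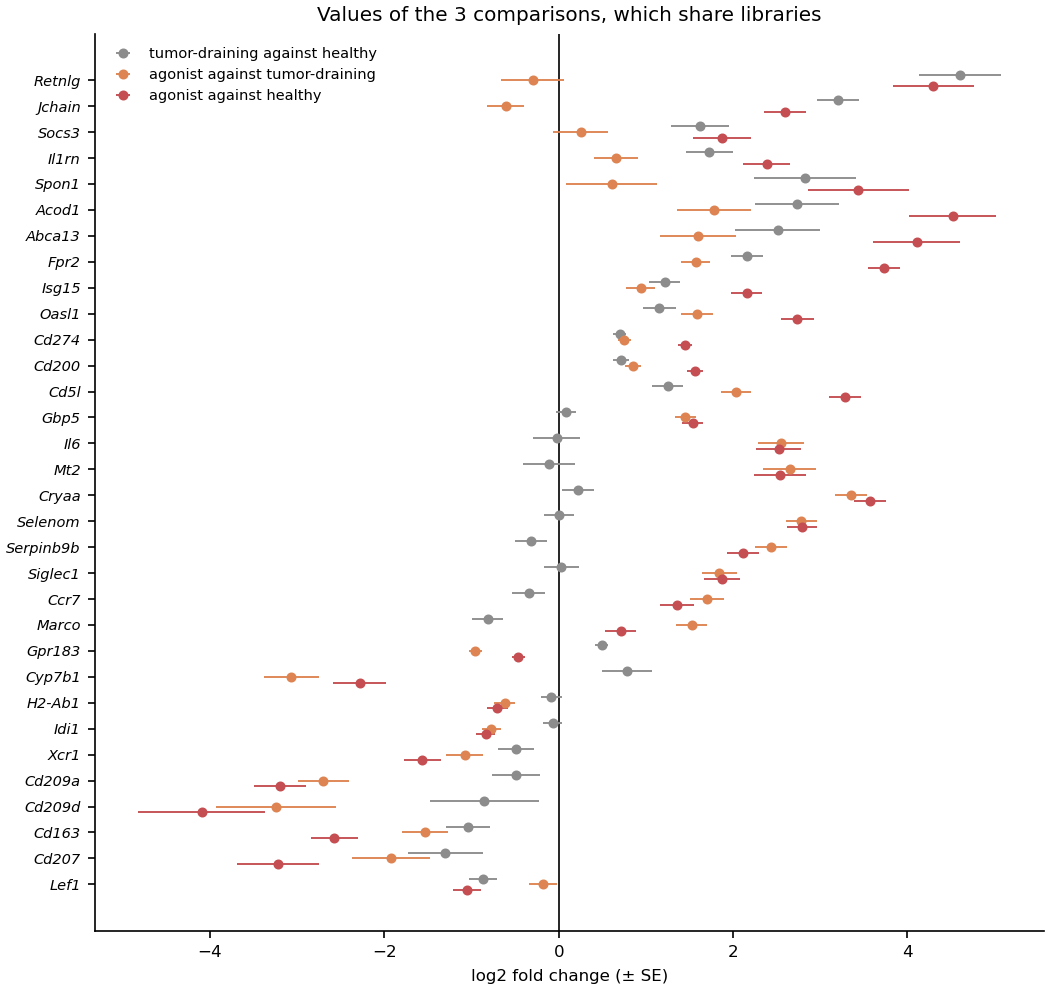
Log2 fold change (x axis, ± SE) of 32 genes between tumor-draining and healthy libraries (grey), agonist and tumor-draining libraries (orange) and agonist and healthy libraries (red). Retnlg, Jchain and Socs3 at the top have their grey points far from 0, Cryaa, Selenom and Mt2 their orange points, and Marco, Gpr183 and Cyp7b1 have grey and orange points on opposite sides of 0.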

How the data were processed

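RNA-seq libraries of CD11c-positive lymph node cells were compared. The deposited values were estimated counts per transcript, not scaled between libraries, and a TPM table of the same libraries. For the authors' quantification, the submitters' processing notes name Salmon, with no version given in the sources used here, and mm10. The deposited tables are themselves named for sailfish, a related quantifier, and which tool made them was not settled. The deposited TPM were summed to genes as well, and no level given here is taken from them. Of 132374 transcripts, 131974 were matched by ID and summed to 52355 genes, then rounded to whole numbers. The 400 unmatched transcripts held 0.116% to 0.147% of the counts per library and were left out.

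The test was edgeR 4.0.16 (R 4.3.3), quasi-likelihood with robust dispersion, TMM scaling, a low-count filter of 10 and all 12 libraries, with group and title prefix as terms, which left 6 residual degrees of freedom. Calls were made at an adjusted p (Benjamini-Hochberg, over all genes tested) under 0.05. The biological coefficient of variation was 20.7%. The prefix comes from the sample titles, where each number occurs once per group. Deviations from the group means of libraries with the same prefix had correlations of 0.43, 0.33, 0.42 and 0.20, against -0.39 to 0.29 for other pairs. Healthy replicate 4 went more with agonist replicate 3 (0.29) than with agonist replicate 4 (0.20), so the check does not bear out the pairing of prefix 4. The block was set by the design and did not rest on this check. No 2 libraries of a group held identical values, and chi-square divided by its degrees of freedom was at least 26.6 between any pair.

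The gene groups and the lists were chosen with earlier results of these data known. Genes were named where they were called and among the 12 largest rises or falls (mean log2 CPM of at least 2, 1 direction in all 4 prefix pairs) or the 10 smallest p, both leaving out predicted genes, pseudogenes and antigen receptor genes, or up to 4 members per list with the smallest p, besides 18 preset genes. Other list members were named after their values were seen. Values of some genes are not reported here. Near-identical copies (guanylate-binding, Ly6, class I and Cd209 families) are uncertain, since reads can be split between them. The alternatives were no block, the 8 compared libraries alone, DESeq2 1.42.0, limma 3.58.1 voom, DESeq2 size factors, no filter, each library or prefix left out, and prefix pairs alone. Counts were also simulated for agonist against healthy over 23173 genes, from the fitted model with its own spread and block. In them 100 genes were changed by 1 log2 unit and 100 by 2, all with an average log2 CPM of at least 1. Of these, 82% and 96% were recovered, and 5.82% of calls were false. Far fewer genes were changed than were called in the data, and scarce genes were left out. The shares therefore give no rate for the real calls.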

Additional observations from a re-analysis of the deposited data

Results flagged for a closer look

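The healthy and agonist groups were examined for each of the 204 genes named, and the tumor-draining group for the 5 genes whose tumor-draining levels are printed. In these 413 groups of 4 libraries, 19 held a library that stood apart (a gap to its nearest neighbour above Dixon's 95% critical value), which is 4.60%. Chance gives about 1 in 20. Of these, 14 were in the agonist group.

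Agonist replicate 1 was highest for Ido1, the tryptophan-degrading enzyme, at 40.7 CPM against 3.38 in the next library. It was also highest for the keratin Krt8 at 149 CPM against 23.9, for Ramp3 at 44.02 CPM against 27.1, and for the sterol enzyme Msmo1 at 26.8 CPM against 24.1. The same library was lowest for the proliferation gene Mki67 at 113 CPM against 193 and for the transcription factor Bcl11a at 40.3 CPM against 54.6.

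Agonist replicate 4 was highest for the chemokine Ccl22 at 2251 CPM against 1344, for the actin bundler Fscn1 at 3109 CPM against 2103, for the neurotrophin receptor Ngfr at 12.9 CPM against 2.42, and for the channel Aqp3 at 2.73 CPM against 0.908. It was lowest for Cd274, which encodes PD-L1, at 168 CPM against 201.

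Agonist replicate 3 was highest for the class II gene H2-Aa at 5820.1 CPM against 4909, for the chemokine receptor Ccr6 at 22.4 CPM against 15.1, and for Tbx21, which encodes T-bet, at 22.96 CPM against 11.9.

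In the healthy group, replicate 1 was highest for Bcl2a1b at 171 CPM against 108 and for Il27 at 0.977 CPM against 0.688. Healthy replicate 3 was highest for Ccr6 at 7.87 CPM against 5.92, and healthy replicate 4 for Cxcl10 at 14.1 CPM against 8.97. In the tumor-draining group, replicate 3 was highest for Jchain at 87.9 CPM against 34.3.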

How the results depend on the processing

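Of 4781 genes called (2774 higher, 2007 lower), 1490 were called without the block (1009 higher, 481 lower), so the share of higher calls was 67.7% against 58.0%. The replicate block was the choice that moved the count most among the full sets of libraries. Within prefixes 1 and 2 there were 3131 calls, of which 1027 were lower, and within prefixes 3 and 4 there were 1187 (818 higher, 369 lower). Leaving out a library or a whole prefix gave 2751 to 4614 calls, with 1514 to 2699 higher and 1101 to 2176 lower. The other alternatives stayed within 1.5 times: 3522 calls from the 8 compared libraries alone, 5262 from DESeq2, 4945 from limma voom, 4787 with DESeq2 size factors and 4217 with no filter. Of 204 named genes, 179 were called. Without the block 12 of these were no longer called, with the 8 libraries alone 4, with no filter 2, and with DESeq2, limma voom or DESeq2 size factors none. Within prefixes 1 and 2, 23 were no longer called, and within prefixes 3 and 4, 59. No named gene that was called changed sign under the alternatives run. Tumor and agonist changed together between the groups and cannot be told apart in this comparison. In bulk libraries the number of cells of a type and their RNA per cell cannot be told apart either. With 4 libraries a group, genes near the filter of 10 counts were measured with the least precision.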

Other observations

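Mast cell, basophil and eosinophil genes were near the detection limit. Of 10 listed genes 5 passed the filter on low counts, of which 1 was called higher, and Mcpt8, Ms4a2, Fcer1a, Prss34 and Epx did not pass it. Their summed level was 4.26 to 14.6 CPM in healthy libraries and 8.29 to 12.7 CPM in agonist libraries, so the groups overlapped. The median log2 change was 0.59 within prefixes 1 and 2, where 7 members passed the filter run anew on those libraries. It was -0.43 within prefixes 3 and 4, where 5 passed, so the 2 medians cover different sets of genes.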
